A study of Saccharomyces cerevisiae with 15 samples.

Results

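Incubation of a yeast lysate with MnCl2 was compared with no treatment, as NET-seq occupancy of RNA polymerase I (Pol I) along the gene for the 35S ribosomal RNA precursor. The comparison took 6 of the 15 libraries of the study, 3 labelled MnCl2 and 3 labelled untreated, and all 6858 positions of the gene. In NET-seq (native elongating transcript sequencing) RNA is purified with the polymerase that makes it and sequenced from its 3′ end, and each read is placed at the last incorporated nucleotide. The MnCl2 libraries came from lysate that received 10 mM MnCl2 for 20 minutes on ice, then EDTA (a chelator of divalent cations) to 5 mM and another 30 minutes on ice. The untreated libraries received no cation, no EDTA and no incubation. All 6 came from wild-type *Saccharomyces cerevisiae* that carried a tagged Pol I subunit, (His)7-(HA)3-RPA135, was grown at 30 °C, was broken while frozen, and had Pol I precipitated through the HA tag. No lysate was kept on ice without MnCl2, so MnCl2, EDTA and the time on ice cannot be told apart. The remaining groups were CaCl2, CaCl2 + MNase and MnCl2 + DNase I, of which CaCl2 (5 mM, 2 minutes at 37 °C) and MnCl2 + DNase I are cited where they bear on a result.

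Pol I transcribes one long precursor that contains the 18S, 5.8S and 25S rRNAs. External (ETS1 and ETS2) and internal (ITS1 and ITS2) transcribed spacers lie around and between them and are cut out and degraded as the ribosome matures. A read that ends in a spacer may come from nascent RNA, from an uncut or partly processed precursor, or from a cut spacer piece. A read that ends in an rRNA gene may also come from mature rRNA carried through the precipitation. These sources cannot be told apart at a single position.

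The gene was RDN37-2 (chromosome XII, 460712 to 467569, minus strand, R64), with position 1 at its 5′ end. ETS1 spans positions 1 to 700, 18S 701 to 2500, ITS1 2501 to 2861, 5.8S 2862 to 3019, ITS2 3020 to 3251, 25S 3252 to 6647 and ETS2 6648 to 6858. The annotated copy RDN37-1 differs at 0 positions, so every value is a sum over repeats. At each mature 3′ end a stretch of 3 positions was at 0 in all 15 libraries (2499 to 2501, 3018 to 3020 and 6647 to 6649), for a reason not given in the sources used here. The 10 positions after each stretch are called an end zone below. They are shown because much of what remained in the spacers with MnCl2 lay there. The reference sequence (R64) at each mature 3′ end is given 5′ to 3′, with the end zone in capitals.
3′ end of 18S, chrXII:465049-465083, minus strand: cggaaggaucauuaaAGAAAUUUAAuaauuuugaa
3′ end of 5.8S, chrXII:464530-464564, minus strand: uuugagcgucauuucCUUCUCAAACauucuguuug
3′ end of 25S, chrXII:460901-460935, minus strand: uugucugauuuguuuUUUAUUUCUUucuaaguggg

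MnCl2 replicates 1, 2 and 3 held 2835831, 4134995 and 4727688 reads on the gene, and untreated replicates 1, 2 and 3 held 6887423, 5511328 and 4919541. Values are CPM (a library's reads scaled to a 35S total of 1000000), so 1 read was worth 0.212 to 0.353 CPM with MnCl2 and 0.145 to 0.203 CPM untreated. Because CPM is a share, a fall in one region must appear as a rise elsewhere, and a rise as a fall elsewhere. CPM gives no absolute amount of Pol I. Spacer depth differed far more than total depth: the 4 spacers held 44857, 49903 and 66782 reads in the MnCl2 libraries and 475760, 360496 and 348692 in the untreated ones. Of the spacer positions, 25.3% to 41.2% had 3 or fewer reads in an MnCl2 library, against 3.26% to 3.39% in an untreated one. The study's methods give a culture for each replicate of the wild-type strain, but neither they nor the labels say so of the MnCl2 libraries, so p-values measure the spread between these libraries, which may be technical. With 3 libraries against 3, the smallest p an exact permutation test can give is 0.1, so no such test here could pass 0.05.

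The share of occupancy was lower in all 4 spacers and slightly higher in 18S and 25S with MnCl2. ETS1 held 0.136%, 0.129% and 0.181% of 35S occupancy in the MnCl2 libraries, against 4.31%, 3.99% and 4.40% in the untreated libraries. The ETS1 share was 28.8-fold lower with MnCl2, a log2 difference of -4.85 beside a pooled SD of 0.19. ITS1 held 0.458%, 0.314% and 0.374% with MnCl2 and 1.11%, 1.06% and 1.18% untreated. ITS2 held 0.796%, 0.618% and 0.684% with MnCl2 and 1.06%, 1.08% and 1.04% untreated. ETS2 held 0.192%, 0.146% and 0.174% with MnCl2 and 0.426%, 0.408% and 0.477% untreated. In these 4 spacers the highest MnCl2 library lay below the lowest untreated one (exact permutation p = 0.1 each, two-sided, adjusted 0.117 over 7 regions). The 18S share was 33.1%, 32.0% and 32.5% with MnCl2, above the 31.4%, 30.0% and 30.3% of the untreated libraries. The 25S share was 61.2%, 63.2% and 62.3% with MnCl2 and 58.3%, 59.8% and 59.1% untreated, again with no overlap (exact permutation p = 0.1 for both genes). The 5.8S share overlapped between the groups, at 4.09%, 3.60% and 3.79% with MnCl2 and 3.38%, 3.67% and 3.50% untreated (exact permutation p = 0.2).

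Without the end zones the internal spacers and ETS2 came closer to one another. Per position, ETS1 held 1.94, 1.84 and 2.58 CPM with MnCl2 and 61.6, 57.1 and 62.8 CPM untreated. ITS1 outside its end zone held 4.76, 4.30 and 4.99 CPM per position with MnCl2 and 31.0, 29.5 and 32.8 CPM untreated, which is 6.65-fold lower. ITS2 was 6.84-fold lower on this measure, and ETS2 was 7.32-fold lower. The order of the spacers also differed. ETS1 had the highest occupancy per position of the 4 in every untreated library, and less than ITS1 and ITS2 in every MnCl2 library. The rRNA genes averaged 184 to 185 CPM per position with MnCl2 and 174 to 175 CPM untreated.

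**Figure D1:**
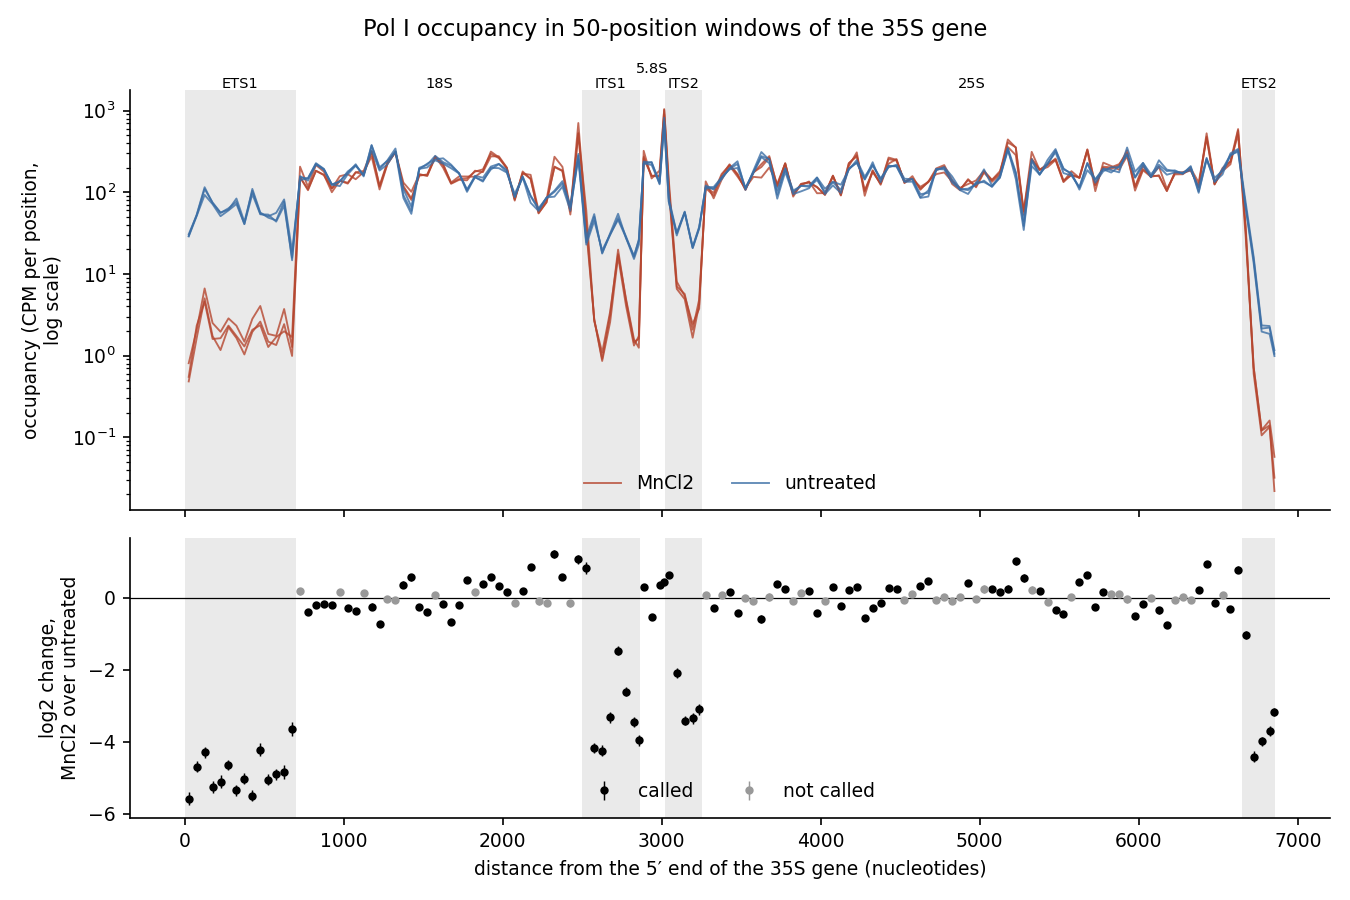
Pol I occupancy in windows of 50 positions along the 35S gene. The upper panel gives CPM per position on a log scale, 1 line per library (MnCl2 red, untreated blue), against distance from the 5′ end in nucleotides. The lower panel gives the limma log2 change, MnCl2 over untreated, with its SE, in black where called and grey where not. Spacers are shaded. All 14 ETS1 windows lie at -3.65 or below, and the rRNA gene windows lie between -0.75 and 1.20.

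The gene was cut into 140 windows of up to 50 positions, and each was tested with limma on log2(CPM + 1). At an adjusted p under 0.05, 61 windows were lower with MnCl2 (43.6%) and 41 were higher (29.3%). All 14 ETS1 windows fell, against that background of 43.6%. In ITS1, 7 of 8 windows fell and 1 rose, in ITS2 4 of 5 fell and 1 rose, and in ETS2 5 of 5 fell. The rRNA genes were mixed, with 39 of 108 windows higher and 31 lower and a median log2 change of 0.02. The split depended on the scaling: median-ratio scaling gave 59 higher and 45 lower, scaling to the rRNA gene sum 31 and 72, scaling to the spacer sum 112 and 27, and edgeR on the recovered reads 50 and 50.

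Along ETS1 the fall was deepest at the very start of the gene. The first window (positions 1 to 50) held 27.5, 24.2 and 40.4 CPM with MnCl2, which is 78, 100 and 191 reads. It held 1463, 1442 and 1536 CPM in the untreated libraries. Its log2 change was -5.58 (SE 0.18, limma adjusted p = 1.39e-12). With 1 library left out it ranged from -5.79 to -5.43, and that of window 401 to 450 from -5.66 to -5.40. At single positions the first window was not the deepest, with a median log2 change of -3.28 against -3.69 in window 101 to 150. The last window (651 to 700) fell least, with 84.6, 49.6 and 63.7 CPM with MnCl2 and 736, 791 and 954 CPM untreated, a log2 change of -3.65. The window 101 to 150 was the highest of the 14 in every MnCl2 library (229, 252 and 333 CPM) and in untreated replicates 1 and 3 (5773 and 5483 CPM, with 4646 CPM in untreated replicate 2), and it fell by 4.30 on the log2 scale. The balance between the front and back of ETS1 hardly moved: its first 7 windows held 54.4%, 54.0% and 53.1% of ETS1 occupancy with MnCl2, and 54.3%, 53.5% and 53.4% untreated. The distribution of occupancy along ETS1 differed by a Kolmogorov-Smirnov distance of 0.0633 on average between MnCl2 and untreated libraries, against 0.0224 within groups (exact permutation p = 0.1, one-sided).

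**Figure D2:**
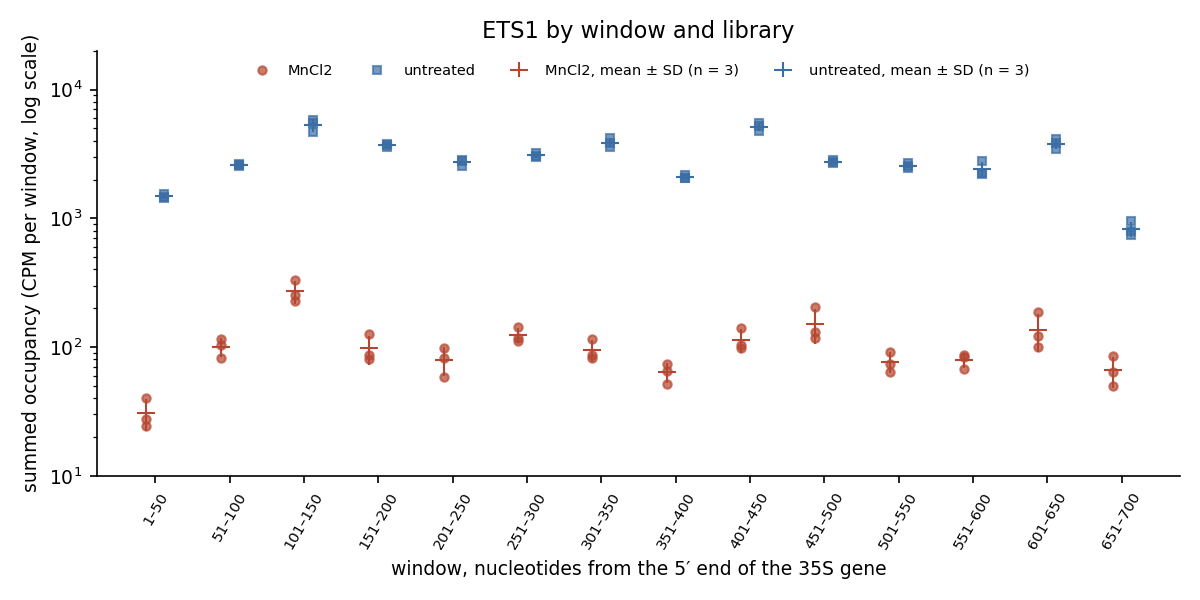
Summed occupancy (CPM per window, log scale) in the 14 windows of ETS1. Red circles are the 3 MnCl2 libraries and blue squares the 3 untreated libraries, with the mean ± SD beside them. No MnCl2 library reached an untreated one in any window, and the untreated libraries were lowest in the last window, at 736 to 954 CPM.

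At single positions, 671 of 695 tested ETS1 positions were lower with MnCl2 at a limma adjusted p under 0.05, and 1 was higher. Over all 6840 tested positions 44.2% were lower and 28.6% higher, and the groups did not overlap at 76.8%. The median log2 change was -3.46 for ETS1 positions, -2.38 for ITS1, -2.03 for ITS2 and -1.61 for ETS2, against -0.19 over all positions. With positions at the floor (3 or fewer reads in every MnCl2 library) set to the bound that 3 reads allow, the medians were -3.64 in ETS1, -2.45 in ITS1 and -1.60 in ETS2. The bound is a log2 ratio of CPM without the added 1 of the limma scale. These medians therefore mix both scales, and a deeper one cannot be read as a larger fall. The floor was reached at 106 ETS1, 27 ITS1, 4 ITS2 and 142 ETS2 positions, so 69.3% of tested ETS2 positions were too shallow with MnCl2 for a measured fold. A fall of more than 2-fold was called at 657 ETS1 positions, of 1840 over the whole gene.

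The largest falls in ETS1 were at 2 adenines. They are shown with 15 bases on either side and the last incorporated nucleotide in capitals, since little of their untreated CPM remained with MnCl2.
ETS1 position 195, chrXII:467360-467390, minus strand: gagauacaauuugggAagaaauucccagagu
ETS1 position 260, chrXII:467295-467325, minus strand: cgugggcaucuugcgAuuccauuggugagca
Position 195 held 0.353, 0.726 and 0.635 CPM with MnCl2 (1, 3 and 3 reads), against 477, 451 and 485 CPM untreated. Pooled over libraries the fall was 787-fold, with a 95% exact binomial interval of 382 to 1958 that covers counting error alone. Position 260 held 1.41, 0.967 and 0.635 CPM with MnCl2 and 472, 386 and 453 CPM untreated, a log2 change of -7.79 (SE 0.18, limma adjusted p = 8.06e-12). CaCl2 libraries held 26.2, 36.5 and 25.3 CPM at position 195, between the other groups. The single rise in ETS1, at position 688, stood at 5.29, 2.66 and 3.81 CPM with MnCl2 and 2.18, 2.36 and 1.22 CPM untreated (log2 change 0.74). Its adjusted p of 0.0193 moved to 0.0761 without MnCl2 replicate 1, 0.107 without untreated replicate 3, 0.0831 with all 15 libraries in one fit and 0.0501 with DESeq2.

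What remained in the internal spacers and ETS2 with MnCl2 was concentrated beside the mature 3′ ends. The ITS1 end zone held 63.6%, 51.9% and 53.2% of ITS1 occupancy with MnCl2, against 2.19%, 2.19% and 2.24% untreated. The ITS2 end zone held 84.4%, 83.0% and 82.4% of ITS2 with MnCl2, against 24.1%, 26.7% and 24.4% untreated. The ETS2 end zone held 68.4%, 73.3% and 70.3% of ETS2 with MnCl2, against 16.5%, 17.2% and 17.0% untreated. With end zones of 30 positions, which take in positions 6661 and 6662, the difference in ETS2 was 26.9 points, against 53.8 points with 10. No end zone share overlapped between the groups (exact permutation p = 0.1 each). The zones themselves held more CPM with MnCl2, 8.59-fold more in ITS1, 2.18-fold more in ITS2 and 1.62-fold more in ETS2. The ITS1 window from 2501 to 2550, which rose by 0.83 with its end zone, fell by 3.46 without it. The ITS2 window from 3020 to 3069 rose by 0.62 with its end zone and fell by 2.13 without it.

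Each zone had its own profile. In ITS1 the signal was highest at the first positions after the stretch at 0: position 2502 held 1045, 470 and 616 CPM with MnCl2 and 23.7, 23.2 and 21.4 CPM untreated. Position 2503, the largest rise in ITS1, held 1091, 676 and 797 CPM with MnCl2 and 29.5, 24.9 and 31.1 CPM untreated (log2 change 4.84, SE 0.16). By position 2508 the order had turned, at 5.99, 6.53 and 5.50 CPM with MnCl2 and 8.86, 10.3 and 12.2 CPM untreated. In ITS2 the signal built up to position 3025, the last U of the first 5 capitals of the sequence given above, with 1766, 1265 and 1412 CPM with MnCl2 and 654, 751 and 656 CPM untreated. In ETS2 the first position of the zone, 6650, was the most occupied position of that spacer with MnCl2 and its largest rise, at 653, 546 and 596 CPM with MnCl2 and 156, 167 and 156 CPM untreated (log2 change 1.90). Of the 30 end zone positions, 18 had a positive log2 change.

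The last positions inside the rRNA genes rose as well. Position 2497 in 18S, 3 nucleotides before its annotated end, held 3862, 4462 and 6921 CPM with MnCl2 and 815, 617 and 725 CPM untreated (log2 change 2.78, SE 0.21, limma adjusted p = 8.99e-08). Position 6646 in 25S was the most occupied of the rRNA genes with MnCl2, at 15301, 13121 and 15115 CPM, against 3881, 3659 and 3797 CPM untreated (log2 change 1.94). Position 2498 in 18S, the most occupied of the rRNA genes untreated, held 9246, 10826 and 15020 CPM with MnCl2 and 5421, 3947 and 4629 CPM untreated. These are the positions just before the stretches at 0, and the number of mature rRNA 3′ ends among their reads was not measured.

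**Figure D3:**
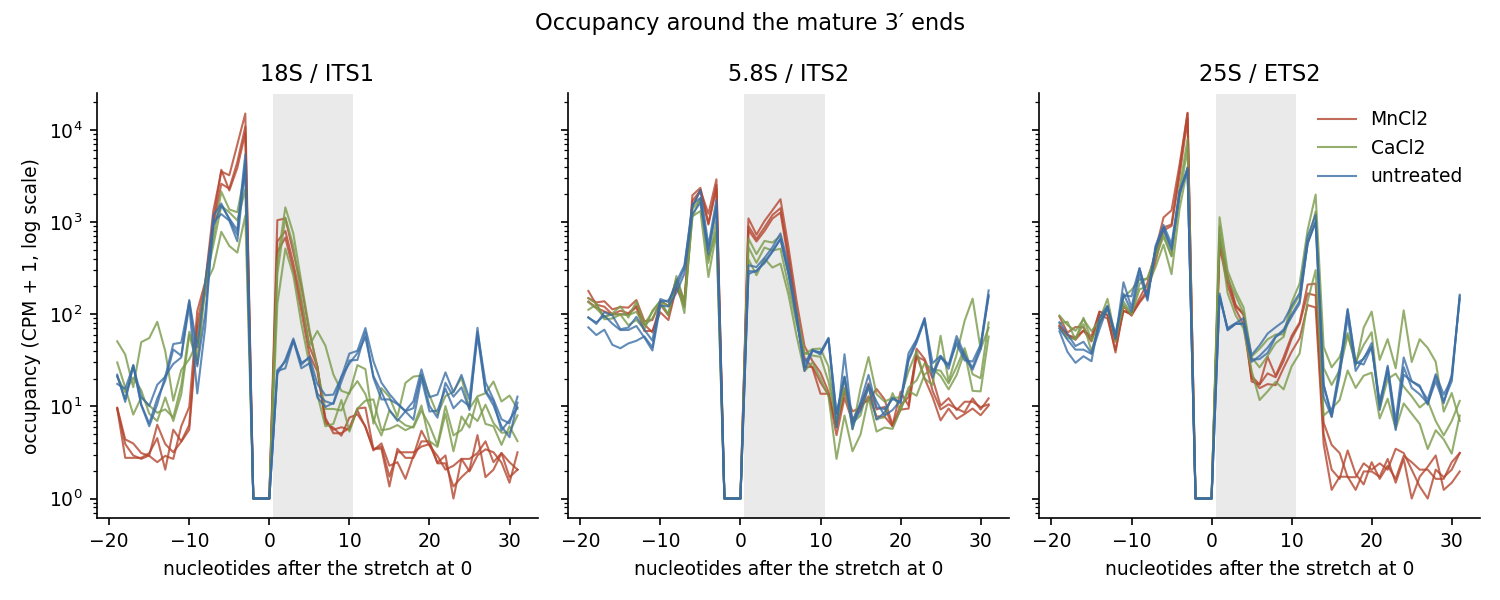
Occupancy (CPM + 1, log scale) by distance in nucleotides from the stretch at 0 at the 3′ ends of 18S, 5.8S and 25S, 1 line per library for MnCl2 (red), CaCl2 (green) and untreated (blue). End zones are shaded. At the first positions of the ITS1 zone both cation groups lie above the untreated libraries, and past the ITS1 and ETS2 zones the MnCl2 libraries lie below the untreated ones.

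CaCl2 libraries shared part of this pattern. Their ITS1 end zone held 39.7%, 19.9% and 20.7% of ITS1, below the MnCl2 libraries and above the untreated ones. In CPM that zone held 2910, 1049 and 2293 with CaCl2 and 2915, 1632 and 1993 with MnCl2, so the groups overlapped. The ETS2 zone overlapped too, at 2023, 1176 and 1764 CPM with CaCl2 and 1314, 1069 and 1221 CPM with MnCl2. The CaCl2 libraries' ETS1 share was 1.72%, 1.66% and 2.91%, between the groups. Their ITS2 share (0.718%, 0.471% and 0.870%) overlapped that of the MnCl2 libraries. Their ETS2 share (0.540%, 0.278% and 0.728%) overlapped that of the untreated libraries. Tested directly, 48 of 140 windows were lower with MnCl2 than with CaCl2 (34.3%) and 22 were higher (15.7%). All 14 ETS1 windows were lower, with log2 differences of -2.70 to -4.44, as were 7 of 8 ITS1 windows. The ITS1 window that holds the end zone did not pass the test (log2 difference -0.19, limma adjusted p = 0.66). Temperature and time differed between these incubations, and their part in the difference was not tested. MnCl2 + DNase I against MnCl2 gave 0 called windows of 140 by limma, with 25 at an unadjusted p under 0.05 and log2 differences of -0.63 to 0.28. Without MnCl2 replicate 1 the count was 9. The spacers were still lower with DNase I: the 4 together held 1.12%, 1.13% and 1.06%, against 1.58%, 1.21% and 1.41% with MnCl2 alone. The ETS1, ITS2 and ETS2 shares did not overlap between these groups, and the ITS1 share did. The median log2 difference was -0.27 over spacer windows and -0.02 over rRNA gene windows. These share differences were not tested.

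Outside the end zones, a short stretch of ITS1 kept more of its occupancy than the rest. It lies around position 2710, an adenine, and is printed with that base in capitals because it was the most occupied spacer position outside the zones with MnCl2.
ITS1 position 2710, chrXII:464845-464875, minus strand: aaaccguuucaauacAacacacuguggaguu
Position 2710 held 268, 274 and 318 CPM with MnCl2 and 459, 488 and 590 CPM untreated, where it ranked 9. Positions 2707 to 2713 together held 674, 643 and 788 CPM with MnCl2 and 1100, 1088 and 1356 CPM untreated, a log2 difference of -0.75. This was 40.3%, 42.6% and 45.0% of ITS1 occupancy outside the end zone with MnCl2, against 10.1%, 10.5% and 11.8% untreated. ITS1 contains the A2 site, where the precursor is cut to separate the small from the large subunit rRNAs. The files do not mark that site, and no distance to it was measured. The stretch was chosen after its values were seen and was not tested. The midpoint of ITS1 occupancy outside the zone lay at position 2710 in all 3 MnCl2 libraries and at 2680, 2680 and 2679 in the untreated ones. The Kolmogorov-Smirnov distance along ITS1 averaged 0.288 between and 0.0275 within groups (exact permutation p = 0.1, one-sided).

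Away from this stretch ITS1 fell steeply. The window 2601 to 2650 held 54.7, 43.0 and 45.7 CPM with MnCl2 and 910, 973 and 890 CPM untreated, a log2 change of -4.25. Position 2617, a guanine in that window, held 0.353, 0.484 and 0.846 CPM with MnCl2 and 215, 238 and 161 CPM untreated (log2 change -7.04). Position 2659, also a guanine, fell by 6.79. In ITS2 the largest fall was at position 3150, with 1.41, 1.45 and 1.48 CPM with MnCl2 and 403, 346 and 289 CPM untreated (log2 change -7.14). Positions 3155 to 3161, around the most occupied ITS2 position outside its zone with MnCl2, took a smaller share of that spacer outside the zone with MnCl2 than untreated. They held 9.40%, 10.4% and 9.83% with MnCl2 and 12.7%, 12.4% and 15.3% untreated.

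ETS2 carries the sites where the precursor is released. Rnt1, the yeast RNase III that cuts in this spacer, is listed at positions 6663 to 6697, and the terminator T1 at 6739, upstream of the site of Reb1 and Nsi1, which bind DNA at the terminator. Position 6662, next to the Rnt1 stretch, had the highest untreated mean of the spacer positions outside the zones. It averaged 163 ± 48.4 CPM with MnCl2 and 1067 ± 113 CPM untreated (SD, n = 3 each), a log2 change of -2.74. The Rnt1 stretch held 61.4, 45.0 and 61.8 CPM with MnCl2 and 850, 785 and 850 CPM untreated. From there to T1 the sum was 28.9, 33.9 and 34.5 CPM with MnCl2 and 652, 587 and 710 CPM untreated. Position 6739 itself held 17.3, 18.9 and 16.9 CPM with MnCl2 and 181, 170 and 190 CPM untreated, so it was 10.2-fold lower. Past T1 the remaining 119 positions held 13.4, 15.2 and 16.3 CPM with MnCl2 and 327, 289 and 344 CPM untreated. On summed CPM the log2 difference was -3.90 in the Rnt1 stretch, -4.32 from there to T1 and -4.42 beyond it. The single positions 6662 (-2.74) and 6739 (-3.28) fell less, on the scale of log2(CPM + 1).

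The base at the RNA 3′ end also differed in the spacers, end zones left out. The shares pool the 4 spacers, whose weights differed between the groups. ETS1 held 1357, 1290 and 1807 of the 4871, 4243 and 5275 CPM with MnCl2. Untreated it held 43100, 39955 and 43988 of 65594, 61614 and 67300 CPM. Shares within a single spacer were not computed, so the part of these weights in the differences was not tested. G took 15.8%, 17.3% and 18.4% of spacer occupancy with MnCl2 and 27.6%, 27.3% and 27.7% untreated. U took 32.6%, 29.6% and 29.3% with MnCl2 and 20.3%, 20.9% and 20.3% untreated. C was higher with MnCl2 (18.3%, 16.6% and 16.02%) than untreated (11.6%, 12.4% and 11.5%), and A was lower (33.3%, 36.4% and 36.2% against 40.5%, 39.4% and 40.5%). No base overlapped between the groups (exact permutation p = 0.1 each, adjusted 0.133 over 8 values). The differences were -4.82 points for A, 5.15 for C, -10.3 for G and 10.0 for U, and their sizes depended on a few positions. Without the most occupied 1% of positions of each library they were -8.21 for A, 1.25 for C (exact permutation p = 0.2), -4.36 for G and 11.3 for U. With the end zones kept they were -15.5, 11.6, -14.1 and 17.9 in the same order. The bases made up 28.3% (A), 15.6% (C), 23.3% (G) and 32.8% (U) of spacer positions. The mean shares of A, C and U were closer to these with MnCl2 than untreated, and that of G was further from it. In the rRNA genes the shares moved less: A was 2.36 points lower and U 2.37 points higher with MnCl2. C (-0.10 points, exact permutation p = 0.9) and G (0.09 points, exact permutation p = 0.6) overlapped between the groups there.

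The next base of the gene, the one Pol I would add, also differed in the spacers. The differences were 11.9 points for A, 6.41 for C, -13.0 for G and -5.34 for U. They pool the 4 spacers, and neither they nor the pairs below were recomputed without the most occupied positions. Position 2710, an A followed by A, held 268, 274 and 318 of the 4871, 4243 and 5275 CPM outside the zones with MnCl2. Untreated it held 459, 488 and 590 of 65594, 61614 and 67300 CPM. G followed the 3′ end for 17.8%, 17.4% and 18.5% of spacer occupancy with MnCl2 and 31.6%, 30.3% and 30.9% untreated. A followed it for 36.1%, 35.7% and 34.5% with MnCl2 and 23.0%, 23.4% and 24.1% untreated. Taken as pairs of last and next base, AG held 7.88% with MnCl2 and 14.1% untreated, and GG 3.70% with MnCl2 and 8.83% untreated. The median log2 change was -3.88 at the 111 AG positions and -3.79 at the 79 GG positions, against -1.75 at the 97 UA positions. The untreated median was 43.2 CPM at AG and 8.54 CPM at UA. With MnCl2 the medians of all 16 pairs lay between 1.18 and 2.06 CPM, a narrower range than in the untreated libraries. These values are a description over positions of the same 6 libraries. The MnCl2 medians are within 10 reads of 0, so counting error weighs on them.

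**Figure D4:**
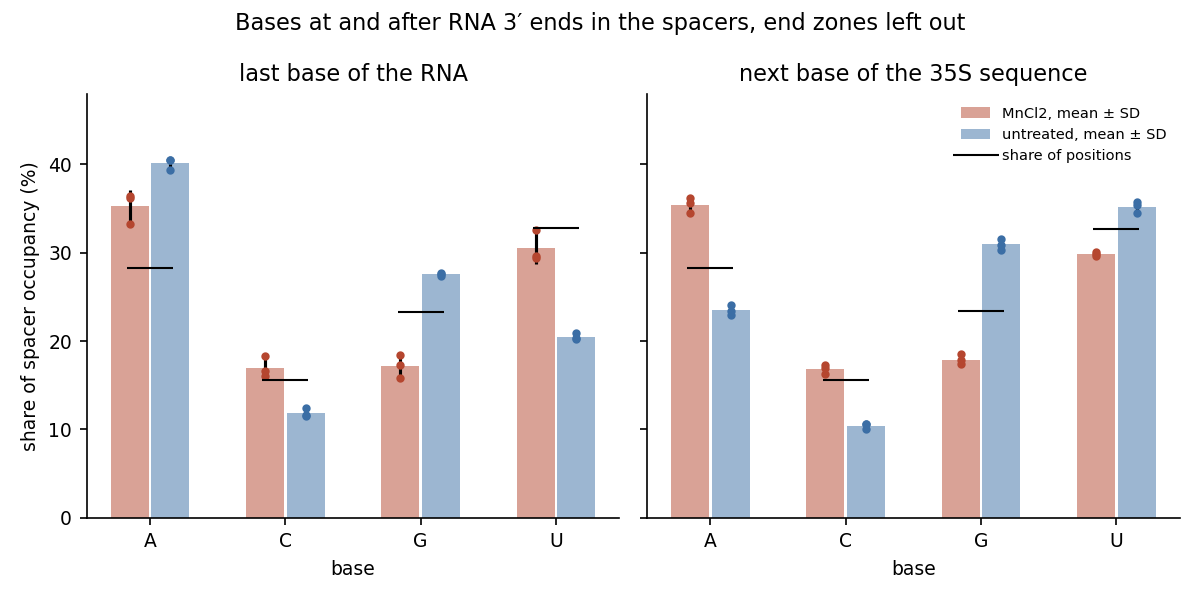
Share of spacer occupancy (%), end zones left out, by the last base of the RNA (left) and by the next base of the 35S sequence (right). Bars are means of 3 libraries with SD, MnCl2 (red) left of untreated (blue), points are libraries and black lines are the share of spacer positions with that base. G as last or next base took less, and U as last base more, with MnCl2.

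In the rRNA genes 1943 of 5349 tested positions were higher with MnCl2 and 1625 lower, with a median log2 change of 0.07. Most changes were small, and 420 positions rose and 520 fell by more than 2-fold, of 431 and 1840 over the whole gene. The largest rise of the gene was at a uracil of 25S, shown in capitals.
25S position 6411, chrXII:461144-461174, minus strand: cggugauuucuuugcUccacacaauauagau
Position 6411 held 4403, 8140 and 5996 CPM with MnCl2 and 119, 125 and 109 CPM untreated. This was 52.6-fold higher (log2 change 5.66, SE 0.19, limma adjusted p = 4.70e-11) and took the position to rank 3 of the rRNA genes with MnCl2, against rank 2730 untreated. It was also high with MnCl2 + DNase I (2535, 6261 and 4364 CPM) and not with CaCl2 (191, 94.4 and 144 CPM). The base before it, position 6410, held 293, 265 and 255 CPM with MnCl2 and 159, 162 and 131 CPM untreated. The base after it, position 6412, held 201, 157 and 157 CPM with MnCl2 and 97.5, 89.3 and 75.4 CPM untreated. Both neighbours changed by less than 1 on the log2 scale, and position 6409 by 2.19 (569, 447 and 484 CPM with MnCl2 and 122, 110 and 93.5 CPM untreated).

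Single positions near the 5′ ends of 5.8S and 25S had large rises. Position 2864, the third base of 5.8S, held 296, 93.4 and 114 CPM with MnCl2 and 7.41, 6.90 and 11.0 CPM untreated (log2 change 3.99). Position 3255, the fourth base of 25S, held 108, 81.3 and 95.4 CPM with MnCl2 and 14.5, 11.6 and 13.2 CPM untreated (log2 change 2.76). Position 2863, the base before 2864, was lower, at 0.705, 0.242 and 0.635 CPM with MnCl2 and 4.07, 5.08 and 6.30 CPM untreated. Its log2 change was -2.01, and its MnCl2 values were 2, 1 and 3 reads. The first 15 positions were mixed in both genes, with 4 higher and 7 lower in 5.8S (median 0.11) and 5 higher and 6 lower in 25S (median 0.06). Over all tested rRNA gene positions 36.3% were higher and 30.4% lower. The other named rise of 5.8S lay toward its 3′ end, at position 2988, with 74.8, 60.7 and 54.1 CPM with MnCl2 and 20.0, 21.4 and 14.2 CPM untreated. The start of 18S was lower almost throughout. Its first 15 positions together held 207, 159 and 189 CPM with MnCl2 and 1063, 996 and 1112 CPM untreated, and 14 of them were lower with a median log2 change of -2.71. Position 702, the second base of 18S, held 1.76, 0.726 and 4.02 CPM with MnCl2 and 396, 328 and 375 CPM untreated (log2 change -6.99). The next 15 positions of 18S had 4 higher and 4 lower and a median of -0.02.

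Several of the deepest falls in the rRNA genes lay just 3′ of known modified bases. Mature rRNA carries a few bases with a chemical group on the edge that pairs, and such groups can stop reverse transcriptase. Those listed are the m1acp3Ψ whose methyl group Emg1 adds in 18S, the adjacent m62A pair made by Dim1 near the 3′ end of 18S, 2 m1A made by Rrp8 and Bmt2 in 25S, and 2 m3U made by Bmt5 and Bmt6 in 25S. Their 10 following bases are in capitals, and the modified base is the last lower-case letter before them.
18S m1acp3Ψ at position 1891, chrXII:465659-465689, minus strand: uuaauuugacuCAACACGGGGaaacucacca
18S m62A at position 2481, chrXII:465069-465099, minus strand: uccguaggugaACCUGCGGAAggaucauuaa
25S m1A at position 3896, chrXII:463654-463684, minus strand: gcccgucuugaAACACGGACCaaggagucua
25S m1A at position 5393, chrXII:462157-462187, minus strand: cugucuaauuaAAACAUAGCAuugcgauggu
25S m3U at position 5885, chrXII:461665-461695, minus strand: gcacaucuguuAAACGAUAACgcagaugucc
25S m3U at position 6094, chrXII:461456-461486, minus strand: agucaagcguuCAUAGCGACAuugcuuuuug

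Over the 61 positions that lie within 10 bases 3′ of these 7 modified bases, 51 were lower with MnCl2 (83.6%) and 1 was higher, with a median log2 change of -1.43. Over all rRNA gene positions 30.4% were lower. The libraries held 9.95 to 10.2 CPM per position in these stretches with MnCl2 and 29.5 to 43.3 CPM untreated. The 61 positions just 5′ of the same bases had 36 higher and 9 lower, a median of 0.52, and 227 to 237 CPM per position with MnCl2 against 156 to 183 CPM untreated. Position 6094 departed from this. Within 10 bases before it the log2 changes were negative (-1.37 at 10 bases), apart from 0.17 at 4 bases. The fall also went on past the 10 bases after it (-1.72 at 15 bases). The stretch after position 1891 held 5.43, 6.09 and 5.796 CPM per position with MnCl2 and 70.0, 63.1 and 68.7 CPM untreated, with 10 of 10 positions lower. CaCl2 libraries held 33.7, 32.9 and 55.2 CPM per position there. Position 1899, a guanine in that stretch, had the largest fall of 18S apart from its start, at 4.23, 6.53 and 7.19 CPM with MnCl2 and 465, 415 and 448 CPM untreated (log2 change -6.01). The largest falls of 25S, at positions 3903 (log2 change -3.97) and 5891 (log2 change -3.84), lay in the stretches after positions 3896 and 5885. Position 3903 held 1.76, 1.21 and 0.635 CPM with MnCl2 and 34.9, 32.9 and 30.5 CPM untreated.

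The drop was weakest after position 5885, where 5 of 10 positions were lower and the libraries held 18.1, 20.2 and 18.9 CPM per position with MnCl2 and 29.6, 61.9 and 20.8 CPM untreated. After the 5 other base modifications listed (2 ac4C, 1 m7G and 2 m5C), 12 of 50 positions were lower and 17 higher, with a median log2 change of 0.11. The lowest of these was after the m5C at position 5529, where 6 of 10 positions were lower. The list of modified bases was drawn up after the low stretches had been seen, so these counts are a description and were not tested. Reverse transcription at the modified bases was not measured, and its part in the result was not tested. Untreated occupancy per position in the low stretches, 29.5 to 43.3 CPM, was far under the rRNA gene mean. It was near that of the spacers outside the end zones (41.8 to 45.7 CPM). With MnCl2 the stretches held more than those spacers, at 9.95 to 10.2 CPM per position against 2.88 to 3.58 CPM. Of the 8 lowest stretches of 10 rRNA positions by running median, 4 began within 2 bases of the 3′ side of such a modified base. The remaining 4 were the start of 18S (702 to 711, median -4.00), 25S 6161 to 6170 (-1.97), 18S 1683 to 1692 (-1.56) and 25S 5708 to 5717 (-1.47).

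**Figure D5:**
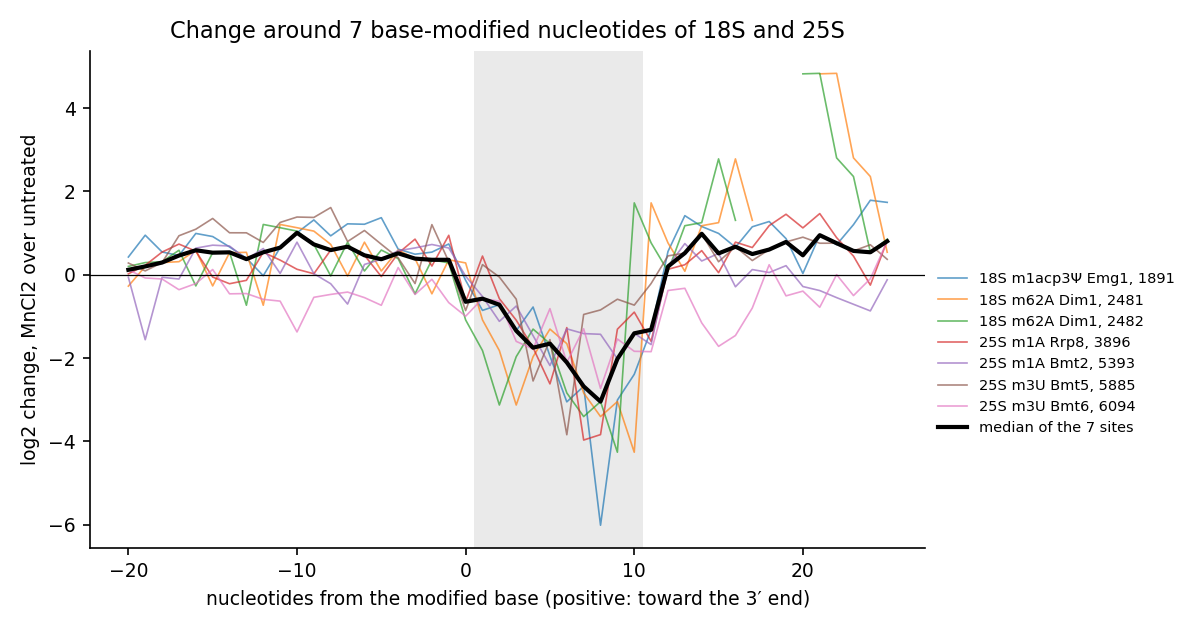
Limma log2 change (MnCl2 over untreated) by distance in nucleotides from 7 modified bases of 18S and 25S, 1 thin line per base and the median in black. The 10 positions after the base are shaded, the lines of the 2 adjacent Dim1 bases overlap by design, and they break where positions were at 0 in all libraries. The 61 shaded positions have a median of -1.43 and the 61 before the bases a median of 0.52.

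Part of the changes in the rRNA genes came in runs. Runs were 8 or more neighbouring positions called in the same direction. Of the 1943 positions higher with MnCl2, 729 lay in 50 runs, and of the 1625 lower positions, 516 lay in 44 runs. The longest, 37 positions in 18S from 2318 to 2354, held 13618, 9931 and 10007 CPM with MnCl2 and 4507, 4394 and 3771 CPM untreated, with a median log2 change of 1.42. It includes position 2333, at 867, 643 and 656 CPM with MnCl2 and 203, 191 and 175 CPM untreated. The 18S window 2301 to 2350 had the largest window rise of the rRNA genes (log2 change 1.20, SE 0.10, limma adjusted p = 9.70e-08). The longest run that was lower, 18S 1683 to 1706, held 2275, 3050 and 2701 CPM with MnCl2 and 6753, 6430 and 7533 CPM untreated. In 5.8S, positions 2925 to 2947 held 1797, 2172 and 2065 CPM with MnCl2 and 4816, 5315 and 5479 CPM untreated. The 25S window 6152 to 6201 fell by 0.75 on the log2 scale, at 5518, 5193 and 5183 CPM with MnCl2 and 8209, 9094 and 9481 CPM untreated. CaCl2 libraries held 5495, 5285 and 5378 CPM in that window, a log2 difference of -0.02 from MnCl2 (limma adjusted p = 0.81). When libraries were scaled to their spacer sum, the named rRNA windows that fell turned to rises, so a fall there is relative to the other rRNA positions.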

How the data were processed

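The study's 15 NET-seq libraries were made from wild-type yeast lysate. Per the submitters' processing notes the tools were bcl2fastq 2.20.00, cutadapt 3.4, STAR 2.7.1a, SAMtools 1.6, bedtools 2.28.0 and R 4.0.2 with the genome build R64, and the study's methods add removal of duplicate reads by their molecular identifier. The deposited values are CPM: the authors divided the 3′ ends at each position by the library's 35S total up to T1 (position 6739) and multiplied by 1000000. The ratio and p-value columns hold the authors' own comparison and were not used. Reads were recovered from CPM, and 99.9% or more of the values in each of the 6 libraries were whole within 0.05 of a read.

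Positions above 0 in at least 3 of 6 libraries, and windows of 50 positions restarting at each region, were tested with limma 3.58.1 (R 4.3.3, lmFit and eBayes with trend, two-sided) on log2(CPM + 1), a scale that understates changes at low values. Calls were made at a Benjamini-Hochberg adjusted p under 0.05. Values with 1 number per library were tested with exact permutation tests (scipy 1.17.1). Named positions were, per region, up to 2 largest rises and falls among called positions whose groups did not overlap, at least 6 positions apart. Named windows were the largest rise and fall per region. Alternatives used edgeR 4.0.16 and DESeq2 1.42.0 on the recovered reads, other scalings, pseudocounts and filters, a replicate block and leaving out each library. The fit was tested on simulated data in which a small part of the positions or windows changed and the true library sizes were used. A shift of composition like that in these data was not simulated. The members and lists were chosen with earlier results of these data known, and the modified bases, clusters, runs and single neighbours were chosen after values were seen. Intervals cover counting error only.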

Additional observations from a re-analysis of the deposited data

How the results depend on the processing

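Of 432 values of 24 named positions under the alternatives, 424 kept direction and call, and of 426 values of 25 windows 416 did. The remaining 10 window values changed sign. Those without the end zones were the windows ITS1 2501 to 2550 (log2 change -3.46) and ITS2 3020 to 3069 (-2.13), which follows from leaving out their zones. The others came from dividing by the spacer sum, with and without the end zones, which moved the median of all positions to 2.07 and 3.51. The window 18S 1201 to 1250 then read 1.55 and 3.02, 5.8S 2912 to 2961 1.75 and 3.21, and 25S 6152 to 6201 1.55 and 3.01. Scaled to the spacer sum without the end zones, ITS2 3120 to 3169 read 0.33, ETS1 651 to 700 read 0.087, the larger named 5.8S fall 0.81 and position 2863 read 0.24. Calls at positions were 4984 (1959 higher, 3025 lower), 5149 with edgeR (2549 and 2600), 5034 with DESeq2, 4738 with all 15 libraries in one fit, 6330 (5398 and 932) and 6290 (5822 and 468) under the 2 spacer scalings, and 4632 to 4943 with 1 library left out. Windows of 25 positions gave 207 calls and windows of 100 positions 52, against 102. Windows MnCl2 against CaCl2 gave 53 to 86 calls with 1 library left out, against 70. Windows of MnCl2 + DNase I against MnCl2 gave 0 to 9, against 0, with 9 without MnCl2 replicate 1 and 1 without MnCl2 replicate 2. The difference of the C share in rRNA genes read 0.48 points without the most occupied 1% of positions and -0.51 to 0.31 with 1 library left out, and that of G -0.28 points and -0.12 to 0.30. The cause of these moves was not tested, apart from the scalings and zones named.

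Replicate numbers did not pair the libraries: same-numbered libraries correlated at -0.04, 0.00 and 0.02 in their deviations over positions. With a replicate block 4872 positions and 92 windows were called, against 4984 and 102, 69 windows against CaCl2, and 7 windows when DNase I had been added to MnCl2. With 25.3% to 41.2% of spacer positions at 3 or fewer reads per MnCl2 library, falls there are bounded by depth.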

Other observations

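Signal was more concentrated with MnCl2. The most occupied 1% of spacer positions outside the end zones, 15 positions, held 28.3%, 26.2% and 26.7% of that signal in the MnCl2 libraries, against 15.4%, 14.5% and 15.04% in the untreated ones. In the rRNA genes the most occupied 54 positions held 10.5%, 11.0% and 11.8% with MnCl2 and 8.08%, 8.12% and 8.63% untreated. Not every highly occupied position moved: position 5158 in 25S, a cytosine that ranked 3 in the rRNA genes untreated, held 2415, 2970 and 2612 CPM with MnCl2 and 2337, 2074 and 2563 CPM untreated, a log2 change of 0.20 that did not pass the test (limma adjusted p = 0.31). Among spacer positions outside the zones, 2709 in ITS1 did not pass the test either, at 117 ± 15.4 CPM with MnCl2 and 98.5 ± 14.3 CPM untreated (SD, n = 3 each, log2 change 0.25).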
